A study of Mus musculus with 48 samples.

Results

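Alkaline phosphatases are enzymes that remove phosphate groups from nucleotides, lipids and bacterial lipopolysaccharide. Alpi, Akp3 and Alpl, 3 mouse genes of this family, were followed through the first 4 weeks after birth in duodenum and ileum. They were chosen by symbol, with earlier results of these data known, from 54532 genes with estimated counts, of which 21986 entered the tests. All 3 passed the filter on low counts, Alpl narrowly, since no library held more than 17 of its counts.

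The study sequenced total RNA from 2 cm of gut taken just after the pylorus (duodenum) or just before the ileocecal junction (ileum) of C57Bl/6J mice of both sexes. Samples were labelled day 0, 2, 4, 6 and 8 and week 2, 3 and 4, with 3 samples for each region and age, 48 in all. The pups stayed with the dam until 21 days and were then fed chow, and litters usually supplied several ages, so age, litter and diet cannot be fully told apart. The labels name germ-free housing as standard and do not say whether the mice were germ-free. No treatment or genetic change separated the groups.

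The samples labelled day 6 number 3 looked exchanged between regions and were left out, so day 6 had 2 samples a region and 46 samples were used. Total counts ran from 23173093 to 65042327 in duodenum and from 16824021 to 42029626 in ileum. Levels are given as CPM, counts scaled to a common library total. The labels describe whole-thickness tissue, yet the summed level of 6 smooth muscle markers was only 4.68 to 44.5 CPM in duodenum and 12.9 to 194 CPM in ileum, while 10 enterocyte markers summed to 12599 to 69730 CPM and 18333 to 42820 CPM. On average over ages, 6 of 6 smooth muscle markers, 6 of 6 fibroblast markers and 7 of 8 endothelial markers were higher in ileum, as were 31.9% of all genes tested. No smooth muscle, endothelial or enterocyte marker was at 0 in any library. In bulk tissue, fewer cells of a type and less RNA per cell cannot be told apart. Nothing in the labels says which samples came from one animal, so the p-values measure the spread between these samples.

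As background, Alpi and Akp3 encode intestinal alkaline phosphatases, which enterocytes attach to the brush border by a glycosylphosphatidylinositol (GPI) anchor and also shed into the lumen. There they are known to strip phosphate from lipopolysaccharide and from nucleotides and to take part in fat absorption. Akp3 encodes the form called duodenal, and Alpi the form also called global. Alpl encodes the tissue-nonspecific enzyme, known from bone, liver, kidney and neutrophils, which breaks down pyrophosphate and pyridoxal phosphate. Alppl2, an intestinal and embryonic relative that was not among the genes chosen, is given beside them because it lies in the same cluster.

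Alpi, Akp3 and Alppl2 are neighbours on chromosome 1, whereas Alpl is on chromosome 4 (GRCm38, GENCODE M21). Alpi (ENSMUSG00000079440) lies at chr1:87098002-87101606 on the minus strand, with 2337 exonic bases. Akp3 (ENSMUSG00000036500) lies at chr1:87124973-87127912 on the plus strand, with 2099 exonic bases, so that the pair points away from each other across 23.4 kb. Alppl2 (ENSMUSG00000026246) lies at chr1:87086694-87089928 on the minus strand, and a pseudogene, Akp-ps1, at chr1:87067672-87071098 on the plus strand. The cluster spans 60.2 kb and holds 6 annotated genes. Alpl (ENSMUSG00000028766) lies at chr4:137741733-137796384 on the minus strand, with 4033 exonic bases.

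The bases just before the start sites of the 3 clustered coding genes are shown because the genes are close copies with different courses. Each is the 250 bases upstream of the RefSeq start site in GRCm38.p6, written 5′ to 3′ on the gene's strand, at chr1:87101607-87101856 (minus) for Alpi, chr1:87124704-87124953 (plus) for Akp3 and chr1:87089929-87090178 (minus) for Alppl2. Capitals mark CAAAGTC, a core of the kind bound by the enterocyte factor HNF4.
Alpi: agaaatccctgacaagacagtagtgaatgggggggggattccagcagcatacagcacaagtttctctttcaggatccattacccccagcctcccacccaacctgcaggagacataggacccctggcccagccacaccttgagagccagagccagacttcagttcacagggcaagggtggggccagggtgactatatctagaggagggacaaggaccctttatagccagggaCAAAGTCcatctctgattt
Akp3: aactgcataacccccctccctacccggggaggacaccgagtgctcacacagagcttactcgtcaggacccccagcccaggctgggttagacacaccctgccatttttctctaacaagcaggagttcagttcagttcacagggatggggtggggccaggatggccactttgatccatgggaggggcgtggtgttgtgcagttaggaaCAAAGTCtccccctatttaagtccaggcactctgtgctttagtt
Alppl2: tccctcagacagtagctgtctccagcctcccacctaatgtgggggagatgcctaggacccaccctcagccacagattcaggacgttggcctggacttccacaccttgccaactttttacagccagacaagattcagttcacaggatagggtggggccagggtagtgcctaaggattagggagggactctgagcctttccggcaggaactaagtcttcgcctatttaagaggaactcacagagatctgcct

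The letters CAAAGTC, searched on both strands, began 19 bases before the start site of Alpi and 44 bases before that of Akp3, and were not in the Alppl2 window. They were also in 1 of the 2 windows of Alpl, 214 bases before its start site. They were present in 1262 of 32841 promoter windows of this length, or 3.84%. GTTCAC was found in all 3 windows, 90, 118 and 115 bases before the start, and in 7.62% of all windows. In Alpi and Akp3 it lies inside their longest shared run, ttcagttcacaggg. TATAAA was found on the opposite strand of the Alpi window only, 33 bases before the start, where it overlaps TTTAT, a core of the kind bound by CDX factors. TATAAA was present in 12.4% of all windows and TTTAT in 37.3%. GATAA, the letters that GATA factors bind, was in none of the 3 windows and in 22.6% of all windows, and CACCC, of the kind bound by KLF factors, was in all 3 and in 52.0% of all windows. The windows of Alpi and Akp3 were identical at 68.4% of 212 aligned bases, and those of Alpi and Alppl2 at 74.5% of 184. A match of letters is a description and shows no binding.

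The transcripts of Alpi and Akp3 were 81.8% identical over 1653 aligned bases, and their longest shared run was 68 bases. Of the 31-base words in each gene's transcripts, 3.47% of those of Alpi and 3.68% of those of Akp3 occurred in the other gene. Reads from these stretches could be assigned to either copy, so small amounts of Akp3 beside abundant Alpi are uncertain. Alpl shared no such word with any of them.

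Alpi was abundant in both regions at every age, but its course differed between them. In duodenum it was lower around day 6 and day 8 and overlapped its newborn values again from week 2. In ileum it was lower at week 4 than at day 0 and at week 3. The effect of age was past the threshold of 0.05 on the adjusted p in both regions (edgeR, adjusted p = 9.06e-09 in duodenum and 3.27e-05 in ileum). That test called 67.4% of all genes in duodenum and 58.7% in ileum. The course over age differed between the regions (interaction of region and age, adjusted p = 2.14e-06, a test that called 22.4% of genes).

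In duodenum, Alpi stood at 1495, 1332 and 1355 CPM at day 0 and at 1996, 1594 and 1772 CPM at day 2. It stood at 988, 651 and 806 CPM at day 4, at 274 and 432 CPM in the 2 samples of day 6 and at 737, 640.0 and 678 CPM at day 8. Every sample of days 4, 6 and 8 was below every sample of days 0 and 2, and both day 6 samples were below all others of the duodenum. From week 2 the samples spread more widely, with 1716, 1001 and 1201 CPM at week 2, 1940.2, 1723 and 1099 CPM at week 3, then 1714, 1415 and 2128 CPM at week 4. These 3 ages overlapped one another and overlapped day 0, so their order does not exceed the spread.

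Day 2 did not differ detectably from day 0 (log2 difference 0.36 ± 0.24 SE, adjusted p = 0.455), in a comparison that called 6.8% of genes. Alpi was lower at day 8 than at day 0, at -1.02 ± 0.24 on the log2 scale (adjusted p = 0.000573), where 41.2% of genes were called. It was higher at week 2 than at day 8 by 0.93 ± 0.24 (adjusted p = 0.00694, 15.7% of genes called). That rise rested on week 2 sample 1, without which it was 0.69 with an adjusted p of 0.105. The steps from week 2 to week 3 (0.28 ± 0.23, adjusted p = 0.457, 18.3% of genes called) and from week 3 to week 4 (0.14 ± 0.23, adjusted p = 0.747, 12.7% called) did not pass the threshold. Neither did week 4 against day 0 (0.33 ± 0.24, adjusted p = 0.271, 40.5% called).

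In ileum, Alpi stood at 1446, 1067 and 1306 CPM at day 0 and at 1510.5, 1623 and 1493 CPM at day 2. It stood at 1613, 1194 and 1025 CPM at day 4, at 1049.6 and 1309.9 CPM in the 2 samples of day 6 and at 640.5, 987 and 1068 CPM at day 8. Day 4 and day 6 overlapped day 0, and the highest day 8 sample only just reached the lowest of day 0. The values were 1648, 1494 and 1758 CPM at week 2, 1108, 1261 and 953 CPM at week 3, then 761, 495 and 403 CPM at week 4. Week 2, week 3 and week 4 did not overlap one another, and their means were, in order of age, 1633 ± 132, 1107 ± 154 and 553 ± 186 CPM (SD, n = 3 each).

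Neither day 2 (0.28 ± 0.24, adjusted p = 0.554, 5.2% of genes called) nor day 8 (-0.50 ± 0.24, adjusted p = 0.135, 19.3% called) passed the threshold against day 0 in ileum. Week 2 was higher than day 8 by 0.86 ± 0.24 on the log2 scale (adjusted p = 0.0228, 6.64% called). That call was lost without day 8 sample 1 (0.67, adjusted p = 0.256), without week 2 sample 1 (0.86, adjusted p = 0.0710) or without week 2 sample 3 (0.81, adjusted p = 0.0922). The step from week 2 to week 3 was -0.56 ± 0.24 (adjusted p = 0.075, 26.8% called) and did not pass, although the samples of the 2 ages did not overlap. Alpi then fell by 1.00 ± 0.24 on the log2 scale from week 3 to week 4 (adjusted p = 0.00224, 16.1% called), and week 4 was lower than day 0, at -1.20 ± 0.24 (adjusted p = 7.62e-05, 41.9% called). With only weeks 3 and 4 of the ileum in the fit, the week 4 step was -0.97 with an adjusted p of 0.0554.

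**Figure D1:**
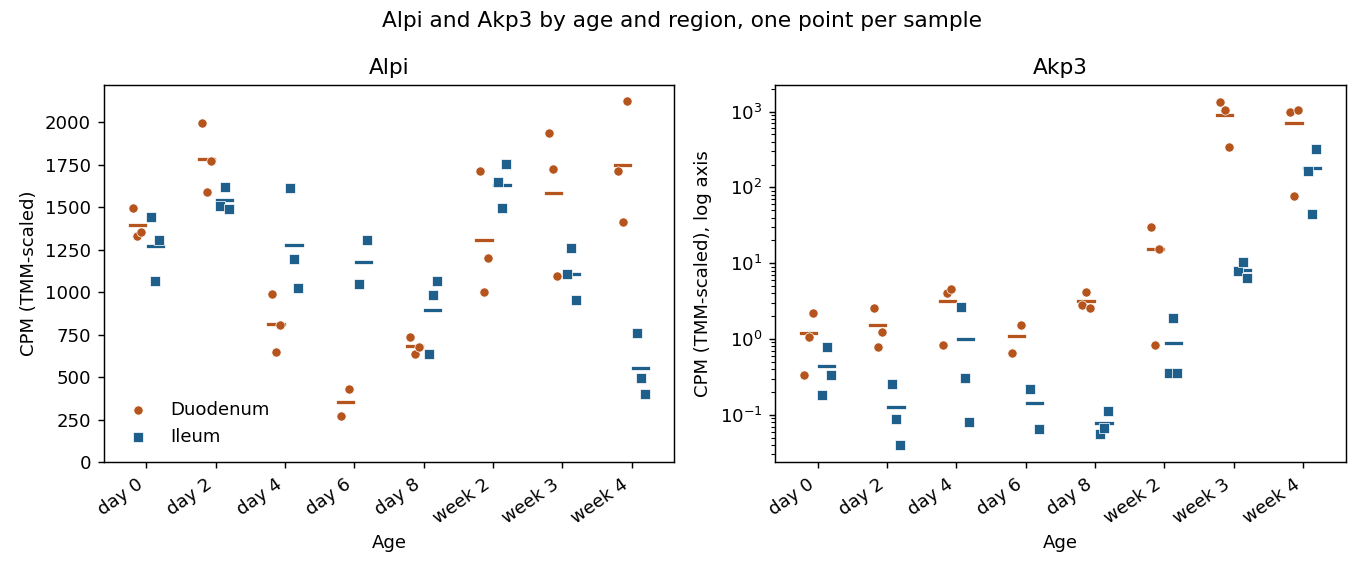
Alpi (left, linear axis) and Akp3 (right, log axis) in CPM against age, with 1 point per sample and a bar at the mean, duodenum in brown circles and ileum in blue squares. Alpi dips in duodenum at day 6 to 274 and 432 CPM and falls in ileum to 403 to 761 CPM at week 4, while Akp3 reaches 336 CPM or more in duodenum at week 3 and 45.0 to 322 CPM in ileum at week 4.

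Set side by side, the regions did not differ detectably in their level of Alpi in the newborn and changed places later. At day 0 and day 2 the difference did not pass the threshold (-0.13 and -0.21 on the log2 scale, adjusted p = 0.843 and 0.685), where 6.1% and 8.01% of genes were called. At day 6 Alpi was higher in ileum by 1.74 ± 0.30 (adjusted p = 2.92e-05, 35.3% called), with no overlap between the 2 samples of each region. With the samples labelled day 6 number 3 kept as labelled, that difference was 0.55 (adjusted p = 0.740), and the calls of Alpi at week 2 against day 8 in both regions, at ileal week 4 against week 3 and between the regions at day 4 were lost. At week 4 it was lower in ileum, at -1.66 ± 0.24 (adjusted p = 4.80e-06, 28.4% called), again with no overlap. At day 4 it was higher in ileum by 0.65 ± 0.24 (adjusted p = 0.038, 26.6% called), but that call was lost when any of 3 samples was left out (duodenum 2, duodenum 3 or ileum 1, adjusted p = 0.173, 0.0821 and 0.244) or with only the compared groups in the fit (0.71, adjusted p = 0.269). The differences at day 8 (0.39, adjusted p = 0.183, 39.6% called), week 2 (0.32, adjusted p = 0.347, 22.4% called) and week 3 (-0.52, adjusted p = 0.137, 14.2% called) did not pass. Day 8 was called with only the compared groups (0.50, adjusted p = 0.0293), and week 3 without day 4 (-0.62, adjusted p = 0.0361). Averaged over the 8 ages the regions differed by 0.07 ± 0.09 (adjusted p = 0.484), where 62.1% of all genes were called.

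Enterocyte markers moved with the duodenal dip of Alpi, whereas at its ileal fall their week 4 sums overlapped those of weeks 2 and 3. The summed level of the 10 markers in duodenum was 42662, 35202 and 42629 CPM at day 0, 12599 and 19698 CPM at day 6 and 26402, 22658 and 24590 CPM at day 8. Per 100 CPM of these markers, Alpi stood at 3.5, 3.78 and 3.18 CPM in the duodenal samples of day 0, at 2.17 and 2.19 at day 6 and at 2.79, 2.82 and 2.76 at day 8. By that ratio day 6 remained below day 0, by less than the levels themselves did. Pancreatic acinar markers summed to 191 and 149 CPM and stomach markers to 25.8 and 102 CPM in the day 6 duodenum, against 21.1 to 51.8 and 0.546 to 0.838 CPM at day 0. The part of these markers in the dip was not tested. In ileum the enterocyte markers summed to 26219, 18446 and 23638 CPM at week 2 and to 27176, 42820 and 31514 CPM at week 3. At week 4 they summed to 39092, 28795 and 20459 CPM. There Alpi stood at 6.28, 8.1 and 7.44 per 100 CPM of markers at week 2 and at 4.08, 2.94 and 3.02 at week 3. At week 4 it stood at 1.95, 1.72 and 1.97, and these ages did not overlap by that ratio.

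Akp3 was close to absent before week 2 and rose to the order of Alpi in duodenum by week 3. The ileum followed at week 4. The effect of age was past the threshold in both regions (adjusted p = 1.50e-11 in duodenum and 8.74e-11 in ileum). Averaged over ages, Akp3 was lower in ileum, at -3.48 ± 0.47 on the log2 scale (adjusted p = 1.69e-07).

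In duodenum, the 14 samples from day 0 to day 8 held between 0.333 and 4.61 CPM of Akp3, from 12 to 195 counts a library. At week 2 the samples stood at 30.1, 0.834 and 15.3 CPM, so that sample 2 was still at the level of the first week while samples 1 and 3 were above every earlier one. The week 3 samples held 1335, 1043 and 336 CPM, and those of week 4 held 977, 77.4 and 1048 CPM. Every week 3 sample was above every week 2 sample, and week 4 sample 2 lay far below its companions yet above all samples to week 2.

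The duodenal step from week 2 to week 3 was 5.87 ± 1.05 on the log2 scale (adjusted p = 8.46e-05), a fitted rise of 58.6-fold. Week 4 exceeded day 0 by 9.12 ± 1.24 (adjusted p = 4.03e-07) and did not differ detectably from week 3 (-0.37 ± 0.85, adjusted p = 0.825). The earlier steps did not pass the threshold, with 1.33 ± 1.01 from day 0 to day 8 (adjusted p = 0.308) and 2.28 ± 0.93 from day 8 to week 2 (adjusted p = 0.0956). Without week 2 sample 2 the latter was 2.84 and was called (adjusted p = 0.0330).

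In ileum, the 14 samples from day 0 to day 8 held 1 to 68 counts of Akp3, at most 2.61 CPM. The values were 0.353, 1.91 and 0.36 CPM at week 2, 7.8, 10.4 and 6.46 CPM at week 3, then 167, 45.0 and 322 CPM at week 4. Each of these ages lay wholly above the one before it. Ileal week 4 overlapped duodenal week 4 only through duodenal sample 2.

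The ileal steps were 3.14 ± 1.05 from week 2 to week 3 (adjusted p = 0.0241) and 4.43 ± 0.99 from week 3 to week 4 (adjusted p = 0.00169). The first of these lost its call without week 2 sample 1 (2.77, adjusted p = 0.101), week 2 sample 3 (2.81, adjusted p = 0.0934) or week 3 sample 2 (2.94, adjusted p = 0.0603). Week 4 exceeded day 0 by 8.72 ± 1.29 (adjusted p = 1.59e-06), against 5, 19 and 14 counts at day 0. The step from day 8 to week 2, 3.41 ± 1.87, started from 1, 2 and 4 counts and did not pass (adjusted p = 0.297). The step was called by DESeq2 (adjusted p = 0.0330), with only the compared groups (0.0279) and by limma on the deposited normalized values plus 1 (0.0373) or 0.1 (0.0297).

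Akp3 was estimated lower in ileum than in duodenum at every age, and the call was made from day 8 to week 3. The difference was -5.18 ± 1.64 at day 8 (adjusted p = 0.0127), -4.05 ± 1.05 at week 2 (adjusted p = 0.00584) and -6.78 ± 1.10 at week 3 (adjusted p = 7.99e-05). At days 0, 2, 4 and 6 it ran from -3.41 to -1.58 and did not pass (adjusted p from 0.228 to 0.569). These calls depended on the fit. With only the compared groups, day 2 and day 6 were called (adjusted p = 0.00425 and 0.0132) and week 2 was not (-4.04, adjusted p = 0.0757), DESeq2 called day 2 (adjusted p = 0.0162), and the replicate block ended the call at week 2 (-3.58, adjusted p = 0.0620). At week 4 it was -1.98 ± 0.88 (adjusted p = 0.0868), and -2.53 with an adjusted p of 0.0301 without duodenal sample 2. Neither the interaction of region and age (adjusted p = 0.0728) nor that of region and the step from week 2 to week 3 (-2.73 ± 1.37, adjusted p = 0.523, 1.38% of genes called) passed for Akp3. The latter did not pass for Alpi either (-0.84 ± 0.33, adjusted p = 0.297).

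**Figure D2:**
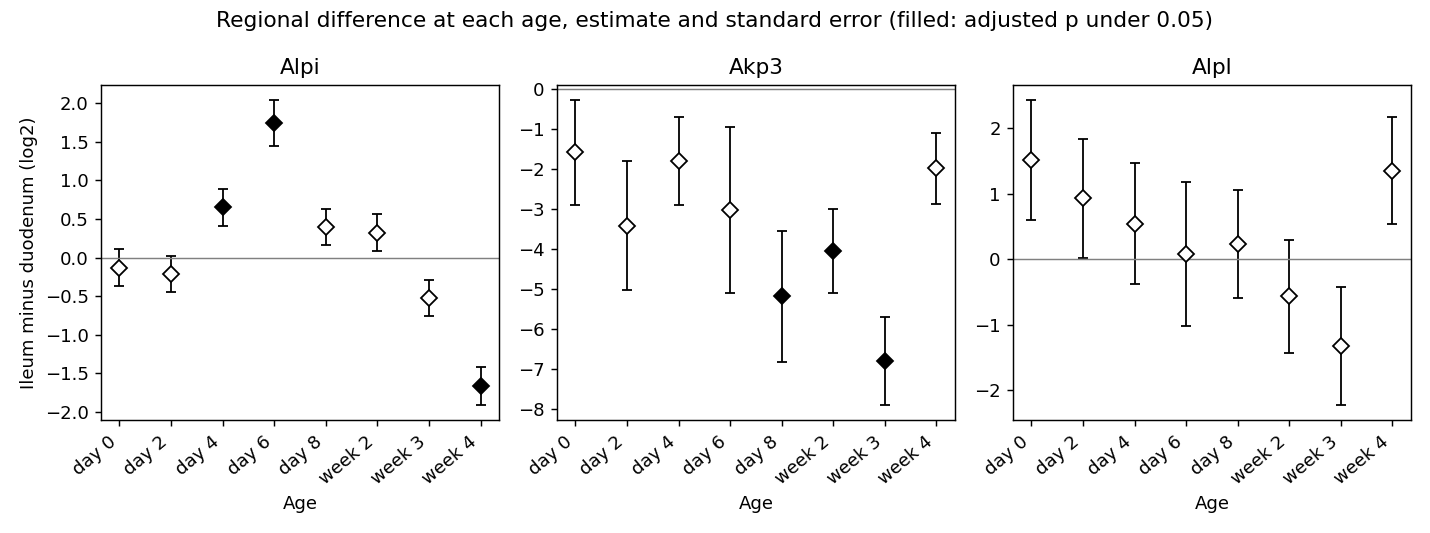
Ileum minus duodenum on the log2 scale at each age for Alpi, Akp3 and Alpl, each on its own vertical scale, with the fitted estimate and its standard error and with filled symbols for an adjusted p under 0.05. Alpi goes from 1.74 at day 6 to -1.66 at week 4, Akp3 stays below 0 at all 8 ages, and no value of Alpl is filled.

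Because Alpi and Akp3 are copies of one another, the share of Akp3 in their summed counts was followed as well, a ratio that does not depend on library scaling. In duodenum Akp3 made up 1.73%, 0.0832% and 1.26% of the pair's counts at week 2, 40.8%, 37.7% and 23.4% at week 3 and 36.3%, 5.19% and 33.0% at week 4. In ileum the same shares were 0.0214%, 0.128% and 0.0205%, 0.699%, 0.82% and 0.674% and 18.0%, 8.34% and 44.4%. Before week 2 the mean share was at most 0.465% ± 0.15 in duodenum (SD, n = 3, day 8) and 0.0651% ± 0.0842 in ileum (SD, n = 3, day 4). At week 3 the shares of the regions were far apart, and at week 4 they overlapped.

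The log2 ratio of Akp3 to Alpi was lower in ileum, at -3.45 on average over ages (permutation test of the region labels within each age, p = 1e-05, the smallest that 100000 resamples can give). It was lower in ileum at 7 of 8 ages, and the difference was 0.0162 at week 4 against -6.10 at week 3. The week 4 value leans on duodenal sample 2, whose Akp3 share was 5.19% beside 36.3% and 33.0% in its companions. The week 4 difference without that sample was not tested. The ratio differed between ages in duodenum (F = 18.8, permutation test, adjusted p = 1e-04 over 2 tests) and in ileum (F = 27.0, permutation test, adjusted p = 6e-05). Per kb of exons, duodenal Alpi stood at 679 ± 187 and Akp3 at 431 ± 245 CPM per kb at week 3 (SD, n = 3). At week 4 in ileum they stood at 237 ± 79.6 and 84.7 ± 66.0 CPM per kb. The 2099 exonic bases of Akp3 join transcripts of 1680 and 1602 bases, while Alpi has 1 transcript of 2337 bases. Its level per kb may therefore be understated for Akp3 beside Alpi.

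**Figure D3:**
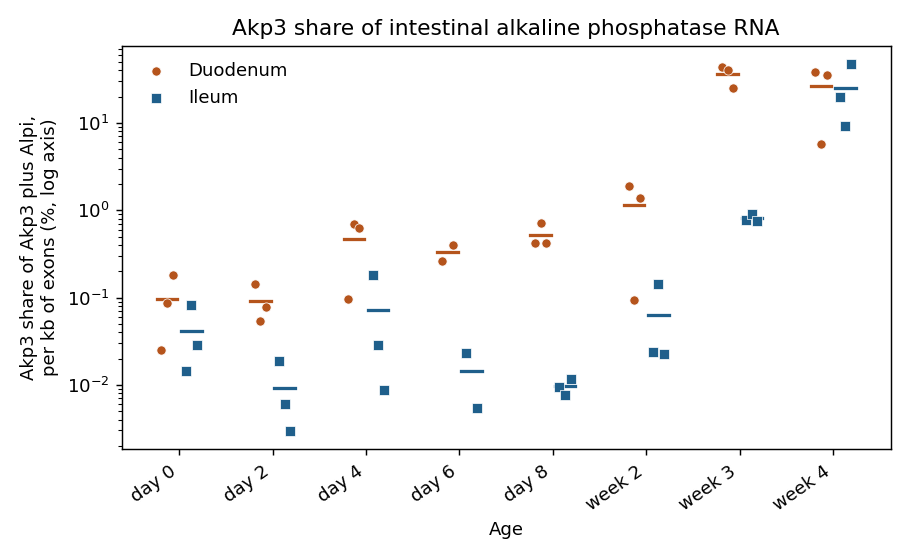
Share of Akp3 in the summed level of Akp3 and Alpi per kb of exons, in percent on a log axis, for each sample by age, with a bar at the mean. The exonic length used for Akp3 is longer than any of its transcripts, which may lower its share. The duodenum is between 25.4% and 43.4% at week 3, when the ileum is between 0.750% and 0.912%, and the ileum reaches 9.20% to 47.0% at week 4.

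Alpl, the tissue-nonspecific gene, was scarcely detected at any age in either region and no change of it passed a test. Its counts were 3, 0 and 5 in duodenum and 8, 3 and 7 in ileum at day 0. They were 9, 9 and 14 in duodenum and 1, 3 and 3 in ileum at week 3, and 2, 11 and 6 and 6, 11 and 12 at week 4. Scaled for depth, Alpl stood at 0.0832, 0 and 0.0911 CPM in duodenum and 0.296, 0.125 and 0.166 CPM in ileum at day 0. It stood at 0.161, 0.314 and 0.359 CPM and 0.0400, 0.145 and 0.145 CPM at week 3, then 0.0521, 0.306 and 0.212 CPM and 0.350, 0.341 and 0.802 CPM at week 4. By CPM the regions did not overlap at these 3 ages, with ileum above at day 0 and week 4 and duodenum above at week 3, whereas the raw counts of day 0 and of week 4 overlapped. The day 0 separation is uncertain, since the duodenal 0 allows up to 0.137 CPM (3 counts), above the ileal 0.125 CPM. At all other ages the regions overlapped by CPM. Over all samples the highest count was 17, in duodenum day 8 sample 3, with 15 in ileum day 8 sample 2 beside 1 in each of its companions.

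The effect of age on Alpl had an adjusted p of 0.292 in duodenum and 0.24 in ileum, and the interaction of region and age 0.46. The largest step tested was from week 3 to week 4 in ileum, 2.14 ± 0.91 on the log2 scale (adjusted p = 0.108). The ileum was estimated above the duodenum by 1.52 ± 0.91 at day 0 (adjusted p = 0.39) and by 1.35 ± 0.82 at week 4 (adjusted p = 0.209), and below it, at -1.32 ± 0.90, at week 3 (adjusted p = 0.346), none of which passed. With standard errors of 0.80 to 1.10 on the steps and regional differences at single ages, changes of a few-fold were not detectable at this depth. The counts of 0 in duodenum day 0 sample 2 and day 4 sample 1 allow up to 0.137 and 0.0768 CPM, taking 3 counts as the limit of a 0.

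Alppl2 was at most 6 counts a library up to week 2 and was detected in both regions from week 3. Its counts in duodenum were 0, 6 and 4 at week 2, 41, 37 and 36 at week 3 and 93, 44 and 65 at week 4. In ileum they were 2, 0 and 0, 14, 32 and 35 and 17, 29 and 5. Every sample of weeks 3 and 4 was above every earlier sample of its region, including ileum week 4 sample 3 with its 5 counts. From week 2 to week 3 it rose in duodenum (adjusted p = 0.000863) and in ileum (adjusted p = 2.16e-06). By summed counts the ratio was 9.37 in duodenum (95% exact interval 4.91 to 20.1, 114 against 10 counts) and 69.8 in ileum (18.7 to 586, 81 against 2 counts), intervals that cover counting error only. Week 4 exceeded day 0 in both regions (adjusted p = 1.85e-07 and 1.13e-05). In ileum, all samples of days 2, 4 and 6 held 0 counts of Alppl2. Of the 31-base words of Alppl2, 1.22% occurred in Alpi and 0.698% in Akp3, so its small counts beside theirs are uncertain too. Akp-ps1 had 0 to 7 counts and was not tested.

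**Figure D4:**
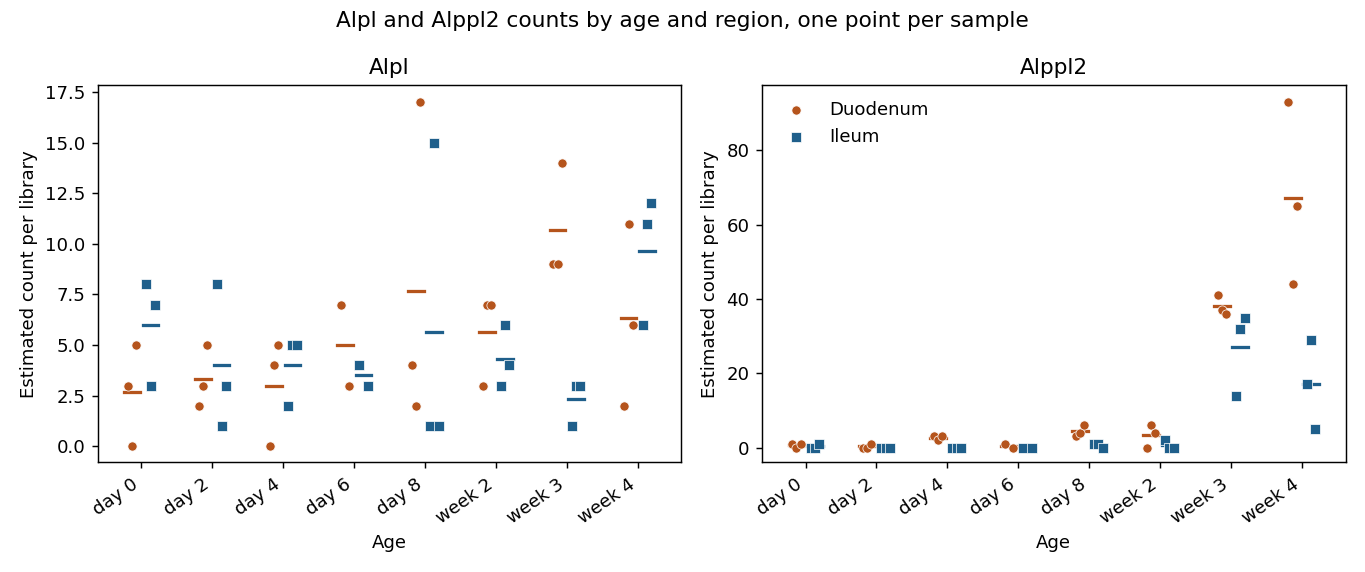
Estimated counts per library of Alpl (left) and Alppl2 (right) against age, 1 point per sample and a bar at the mean, on linear axes of different range. Alpl lies between 0 and 17 counts throughout, whereas Alppl2 is at 6 or below until week 2 and between 5 and 93 at weeks 3 and 4.

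Genes for 13 transcription factors linked to intestinal alkaline phosphatase or to enterocyte maturation were compared over the step at which Akp3 rose. From week 2 to week 3, 3 rose and 1 fell in duodenum, with a median of -0.10 against 0.03 over all genes, and 4 rose and 2 fell in ileum, with a median of 0.11 against 0.03. Of all genes tested, 7.7% rose and 10.6% fell in duodenum over this step, and 12.9% rose and 13.9% fell in ileum. Klf4, a factor of goblet cell and enterocyte differentiation, rose by 1.57 ± 0.19 in duodenum (adjusted p = 2.24e-08) and 1.70 ± 0.19 in ileum (adjusted p = 2.46e-09). Vdr, the vitamin D receptor, rose by 1.29 and 1.33, and Hnf4g, an enterocyte nuclear receptor, by 1.27 and 1.70 (largest adjusted p of the 4, 7.35e-05). Prdm1, a repressor known to hold back adult enterocyte genes in the suckling gut, was lower, at -3.16 ± 0.23 in duodenum (adjusted p = 2.38e-13) and -3.57 ± 0.24 in ileum (adjusted p = 9.94e-15).

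In ileum Cdx1, a caudal-type factor, also rose by 0.50 (adjusted p = 0.0285), and Thrb, a thyroid hormone receptor, was lower, at -0.75 (adjusted p = 0.0169). In duodenum these stood at 0.20 and -0.54 and did not pass. Cdx1 lost its ileal call with no filter on low counts (adjusted p = 0.101) or without any of 5 samples of these ages (adjusted p from 0.0523 to 0.0972), and Thrb lost its own without week 3 sample 3 (0.0813) or with the samples labelled day 6 number 3 kept (0.0539). Duodenal Thrb was called with only the compared groups (adjusted p = 0.00578), without day 4 (0.0127) and by limma (0.00672 and 0.00725 with 1 and 0.1 added). Hnf4a, Cdx2, Gata4, Gata6, Thra, Rxra and Zfp148 did not pass in either region over this step, with values from -0.29 to 0.35. Ileal Rxra was called with only the compared groups, by DESeq2 or without week 3 sample 3 (adjusted p = 0.0389, 0.0415 and 0.0458), and duodenal Gata6 by limma (0.0430 and 0.0417). Between day 0 and week 4, 5 of the 13 rose and 2 fell in duodenum, and 4 rose and 3 fell in ileum, beside 20.4% higher and 20.1% lower of all genes in duodenum and 21.5% and 20.4% in ileum. Vdr rose most, by 3.97 ± 0.19 and 2.99 ± 0.18. Hnf4a rose by 1.18 and 0.85, and Prdm1 was lower, at -2.39 and -2.56. Among these calls, that of Gata6 in duodenum (-0.35, adjusted p = 0.0449) was lost without any of the 6 samples compared (adjusted p from 0.0506 to 0.226) and with no filter on low counts (0.169), and that of Hnf4g in ileum (0.66, adjusted p = 0.0198) without day 0 sample 1 or 2 (0.0615 and 0.0519) or week 4 sample 1 (0.479) and with only the compared groups (0.0760). Duodenal Hnf4g (0.55, adjusted p = 0.0533) was called by DESeq2 (0.0457), with only the compared groups (0.0456) and without day 4 (0.0122). It was also called by limma (0.00582 and 0.00644 with 1 and 0.1 added) and without week 4 sample 1 (0.0106). Duodenal Gata4 (0.40, adjusted p = 0.306) was called with only the compared groups (0.0307) and by limma (0.00248 and 0.00246). Ileal Thrb (-0.55, adjusted p = 0.0669) was called without day 4 (0.00216) and by limma (0.0154 and 0.0163). Without day 4, ileal Cdx1 (0.0300) and duodenal Zfp148 (0.0482) passed.

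Averaged over ages, 9 of the 13 factors were lower in ileum and 2 were higher, where 30.2% of all genes were lower and 31.9% higher. Gata4, which is known to mark the proximal small intestine, was lower, at -1.46 ± 0.11 (adjusted p = 2.48e-13). Klf4 (0.87) and Prdm1 (0.69) were the 2 that were higher in ileum. Of the 9, Hnf4g lost its call with RLE scaling (adjusted p = 0.0511), with the replicate block (0.0503) or with the samples labelled day 6 number 3 kept (0.0949), and Thra with RLE scaling (0.0669) or by DESeq2 (0.0552). Both also lost it without duodenum week 4 sample 2 (0.0560 and 0.0515) or ileum week 4 sample 2 (0.0548 and 0.0552), Hnf4g without ileum week 4 sample 3 (0.0513) and Thra without duodenum day 6 sample 2 (0.0522).

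**Figure D5:**
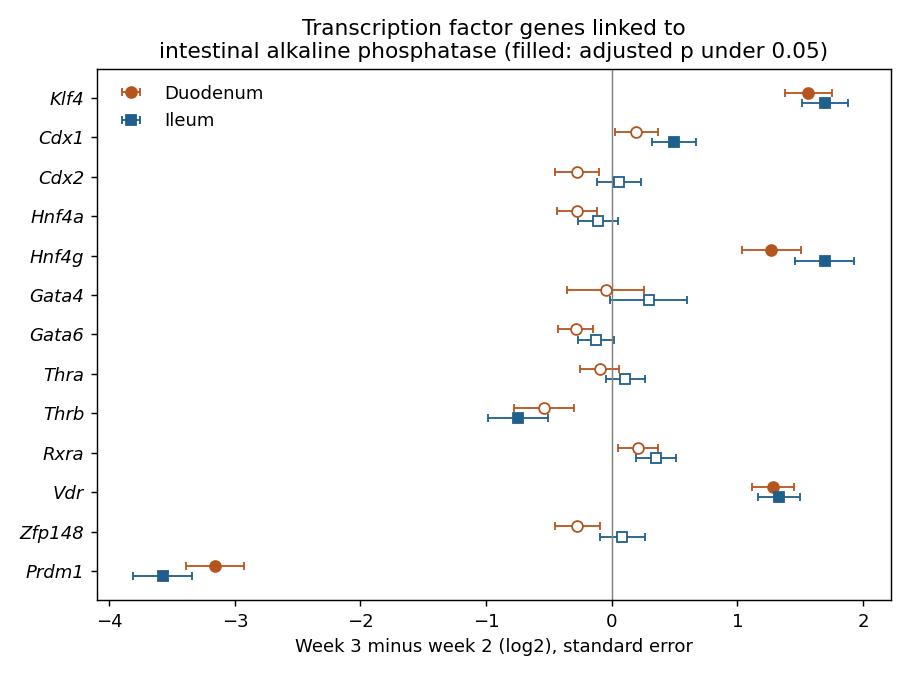
Week 3 minus week 2 on the log2 scale, with standard errors, for the 13 transcription factor genes in duodenum (brown circles) and ileum (blue squares), filled where the adjusted p is under 0.05. Klf4, Hnf4g and Vdr lie between 1.27 and 1.70 in both regions and Prdm1 at -3.16 and -3.57, while most others lie near 0.

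Some genes that handle extracellular nucleotides and nucleosides moved over the same step. Of 15 genes for the breakdown of extracellular nucleotides and adenosine, 6 rose and 3 fell in duodenum (median 0.60 against 0.03 over all genes), and 4 rose and 2 fell in ileum (median 0.14). Slc28a1 and Slc28a3, which take up nucleosides, rose by 7.50 ± 0.83 and 2.97 ± 0.41 in duodenum and by 5.44 ± 0.75 and 2.87 ± 0.42 in ileum. Ada, adenosine deaminase, rose by 3.20 ± 0.64 in duodenum and 4.12 ± 0.69 in ileum (adjusted p = 0.00038 and 1.92e-05). The duodenal value of Ada was 3.18 with an adjusted p of 0.0954 when only these groups were in the fit.

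Of 28 tested genes for building and attaching the GPI anchor, none was called in duodenum and 1 rose and 4 fell in ileum, with medians of 0.02 and 0.03. Pigh, of the enzyme that starts the anchor, was lower in ileum, at -0.79 ± 0.18, its partner Pigp at -0.72 ± 0.18 as was Gpld1, a phospholipase that cleaves the anchor, at -0.62 ± 0.21. The call of Gpld1 was lost with the samples labelled day 6 number 3 kept (adjusted p = 0.145) or without any of 4 samples of these ages (adjusted p from 0.0531 to 0.106). Duodenal Pigh (-0.46, adjusted p = 0.0669) was called with only the compared groups (0.0256) and without day 4 (0.0402). Limma called it as well (0.0125 and 0.0123 with 1 and 0.1 added). Duodenal Pigp (-0.34, adjusted p = 0.199) was called without week 3 sample 2 (-0.57, adjusted p = 0.0326). Of 11 genes handling phosphate, pyrophosphate and vitamin B6, 1 rose and 4 fell in each region, with medians of -0.17 and -0.21. Phospho1, another phosphatase of mineralization, was the one that rose, by 1.66 ± 0.29 in duodenum and 1.68 ± 0.29 in ileum. The phosphate transporters Slc34a2 (-1.70 ± 0.44) and Slc34a3 (-1.50 ± 0.28) were lower in duodenum, the former not by limma (adjusted p = 0.0561 and 0.0550 with 1 and 0.1 added). In ileum Slc20a1, another phosphate transporter, was lower, at -1.07 ± 0.20, and Slc34a3 at -0.996 ± 0.28, a call lost with the samples labelled day 6 number 3 kept (adjusted p = 0.0614).

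Of 10 genes for sensing lipopolysaccharide, a substrate of the intestinal enzymes, 2 fell in each region and none rose (medians -0.28 and -0.10). They were Ly96, the partner of the receptor Tlr4, with -0.97 ± 0.25 in duodenum and -1.41 ± 0.26 in ileum, and the adaptor gene Tirap, with -0.61 and -0.57. Ileal Tirap lost its call with only the compared groups (adjusted p = 0.0703) or without week 3 sample 2 (-0.40, adjusted p = 0.0816). Of 11 genes for zinc, the metal in the enzymes' active site, 2 fell in duodenum, and 1 rose and 2 fell in ileum (medians 0.08 and 0.18). Slc30a1, a zinc exporter, was lower, at -2.02 ± 0.25 in duodenum and -0.73 ± 0.24 in ileum. Slc39a4, a zinc importer, was lower, at -0.89 in duodenum. In ileum Slc30a10 rose by 0.79 and Slc39a14 was lower, at -0.62. Apart from duodenal Slc30a1, each of these zinc calls was lost when 1 sample was left out. The adjusted p was 0.0694 or 0.0644 for Slc39a4 without week 2 or week 3 sample 1, 0.0517 or 0.0829 for ileal Slc30a1 without week 2 sample 3 or week 3 sample 2, 0.0821 or 0.0575 for Slc30a10 without week 2 sample 1 or week 3 sample 2 and 0.0578 for Slc39a14 without week 3 sample 2. Slc39a4 also lost its call with the samples labelled day 6 number 3 kept (0.0562), and Slc30a10 with no filter on low counts (0.0713). Duodenal Slc39a14 (-0.45, adjusted p = 0.0715) was called by limma (0.0343 and 0.0369 with 1 and 0.1 added). Without duodenum week 3 sample 1 it was -0.67 and was called (0.0109). Over this step 18.3% of all genes were called in duodenum and 26.8% in ileum. The called share was above these for the nucleotide and phosphate lists in both regions, below them for the GPI anchor list in both, and close to them for the lists of lipopolysaccharide sensing and zinc.

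The genes whose log2 CPM followed each of the 3 most closely over the 46 samples were taken from 12355 genes of adequate level (12356 for Alpl), as a description. The samples share groups and, within regions, ages, so these correlations largely reflect differences between groups. For Alpi the first 5 were Enpp3, a nucleotide pyrophosphatase of the nucleotide list (r = 0.847), Ms4a10 (0.844), Plekhg6 (0.837), Mfn2 (0.836) and Ifnar2 (0.834). For Akp3 they were Arg2, a mitochondrial arginase (r = 0.920), Cyp2c55 (0.917), Papss2, which makes the sulfate donor (0.915), Ada (0.911) and Scamp5 (0.910). For Alpl the closest, Glipr2, reached only 0.615, and the next 4 were Hpd, Atoh1, Mmp7 and Elapor1 at 0.524 to 0.549. At 17 counts or fewer, such weak correlations of Alpl are no finding.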

How the data were processed

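Total RNA from duodenum and ileum was sequenced on a NovaSeq 6000, per the labels. The authors deposited estimated counts per gene, and for each region a table of normalized signal values. The submitters' processing notes name STAR 2.6.1d, Salmon 0.14.2, DESeq2 1.30.1 and mm10 without roles, and the annotation release is not given in the sources used here. Estimated counts were rounded to whole numbers, and 46 of 48 samples were used. Genes were filtered with filterByExpr, scaled by TMM and tested by edgeR 4.0.16 (quasi-likelihood, R 4.3.3) in 1 fit of 16 groups, with 25 comparisons and Benjamini-Hochberg adjustment over 21986 genes in each. Group n is 3 (day 6: 2). A call means an adjusted p under 0.05, and the script was tested on simulated data. CPM are counts divided by TMM-scaled library totals, and differences are log2 values with their standard errors. Low counts limit the precision for Akp3 before week 2 and for Alpl. Permutation tests (SciPy 1.17.1) were 2-sided for the region difference and used 100000 resamples, with 0.5 added to each count. Alternatives were RLE scaling, other filters, DESeq2 1.42.0, limma 3.58.1 on log2 of the deposited normalized signal plus 1 or 0.1, other sample sets, a replicate block, and summed Alpi and Akp3 counts. Named genes were Alpi, Akp3 and Alpl, all tested genes of the alkaline phosphatase and transcription factor lists, from each other list the 3 called genes with the largest change between weeks 2 and 3 in each region, and the 5 most alike in pattern. The genes and lists were chosen with earlier results of these data known. Promoter windows are from RefSeq (GRCm38.p6) and were found for Alpi, Akp3, Alppl2 and Alpl. Gene positions and transcripts are from GENCODE M21, aligned with Biopython 1.88. Another 2 genes of the lists are not reported here. The list symbols Alpg, Akp5, Pigy, Ankh and Gif were not matched in the tables.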

Additional observations from a re-analysis of the deposited data

Results flagged for a closer look

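The change of Alpi with age differed between duodenum and ileum (edgeR quasi-likelihood test of the interaction of region and age, adjusted p = 2.14e-06). The result is listed because the regions' courses differed in a test of the difference itself. Alpi was higher in ileum at day 6 (1.74 ± 0.30 on the log2 scale, 2 samples a region) and lower in ileum at week 4 (-1.66 ± 0.24, 3 samples a region). In each of these comparisons no sample of one region overlapped the other, with the samples labelled day 6 number 3 left out. With those samples kept as labelled, the day 6 difference was 0.55 (adjusted p = 0.740). The adjusted p of the interaction ran from 4.33e-07 to 1.74e-05 when each sample was left out in turn.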

How the results depend on the processing

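Over the 25 comparisons of Alpi, Akp3 and Alpl, 1450 of 1507 values under an alternative kept their direction and their side of the threshold, or were called in neither fit. By result, only 50 of 75 were unchanged under every alternative. Those 75 include the comparisons of Alpl, none of which was called. Summing Alpi and Akp3 into 1 feature changed most by construction, since Alpi makes up most of the sum. The sum gave 0.92 for duodenal week 3 against week 2 (adjusted p = 0.0103), 0.81 for week 4 against day 0 (0.0114), -0.0227 for the regions averaged over ages (0.874), -1.47 for region and the step from week 2 to week 3 (0.0309) and an adjusted p of 2.18e-06 for region and age. In place of the directions of Akp3, the sum gave -1.02 for duodenal day 8 against day 0, -0.55, -0.61 and -0.80 for the ileal comparisons of week 3 with week 2, week 4 with week 3 and week 4 with day 0, and 1.74, 0.38 and 0.31 for the regions at day 6, day 8 and week 2. Ileal Alpi at week 3 against week 2 was called at -0.58 with a mean count of at least 10 (adjusted p = 0.0472), at -0.62 with day 4 left out too (0.0273) and at -0.55 with only the compared groups (0.0151); the cause was not tested. The interaction of region and age for Akp3 had an adjusted p of 0.0351 without day 4 and 0.0167 by DESeq2; leaving out each sample in turn gave 0.0338 to 0.143, with the cause not tested, and it passed without duodenum week 2 sample 2, ileum day 4 sample 3 or ileum week 4 sample 2. Ileal Akp3 at week 3 against week 2 ran from 2.77 to 4.52 without each sample in turn. With the samples labelled day 6 number 3 kept, Alpi at day 6 differed between regions by 0.55 (adjusted p = 0.740), and the genes called there went from 7762 to 0, those called for region and age from 4930 to 947, and Alpi lost its calls at week 2 against day 8, ileal week 4 against week 3 and the regions at day 4.

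Other counts over all genes that moved by over 1.5 times were, without day 4, 9512 for region and age. With only the compared groups, the counts went from 5855 to 354 for the regions at day 4, from 6234 to 2491 at week 4 and from 3534 to 1527 for ileal week 4 against week 3. They went up from 3448 to 6278 for duodenal week 2 against day 8 and from 1460 to 3472 in ileum. By limma on the deposited normalized values plus 1, duodenal week 3 against week 2 went from 4014 to 6231. Without ileum day 8 sample 1, ileal week 2 against day 8 went from 1460 to 60.

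The shared sample numbers do not pair the samples by the labels. Over 23 pairs of duodenum and ileum with 1 age and number, the correlation of their deviations averaged 0.155 (-0.363 to 0.672), was over 0.1 in 16 and was best with the own number in 17. With other numbers it averaged -0.0790, a value tied to the first because deviations within a group cancel. Both day 6 pairs hold the same value, 0.187, since each region had 2 samples there. Whether samples with the same number share an animal was not tested. With the replicate block, Akp3 in ileum against duodenum at week 2 was -3.58 (adjusted p = 0.0620), and no other call of the 3 genes changed.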

Other observations

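The samples labelled day 6 number 3 entered no comparison. In the one labelled duodenum, Alpi had 39034 counts (1120.1 CPM), Akp3 0, Alpl 3 and Alppl2 1. In the one labelled ileum, Alpi had 7317 counts (310.5 CPM), Akp3 17 (0.721 CPM), Alpl 4 and Alppl2 0. The first value of Alpi lies within the other 2 ileal day 6 samples (1049.6 and 1309.9 CPM) and the second within the other 2 duodenal ones (274 and 432 CPM). The library with no count of Akp3 is the one labelled duodenum.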
